A study of Mus musculus with 2 samples.

Results

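Heat-shock chaperones are proteins that bind unfolded or partly folded proteins and keep them from aggregating until they fold, are refolded or are handed on for degradation. Members of the HSP70 family take up clients with the help of J-domain partners and nucleotide exchange factors, HSP90 proteins act on late folding intermediates such as kinases and hormone receptors, HSP60 and HSP10 form the folding chamber of mitochondria, and small heat-shock proteins hold clients without ATP. Many of their genes are induced within minutes by heat-shock factor 1, and single-cell suspensions made by enzyme digestion are known to carry this response. In islets, beta cells fold large amounts of proinsulin in the endoplasmic reticulum, which has chaperones of its own that are not among the genes described here.

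The 10 genes described are Hspa1a, Hspa1b, Dnajb1, Hsph1, Hspb1, Hspa8, Hsp90aa1, Hsp90ab1, Hspd1 and Hspe1, taken by symbol from the 28692 genes of the deposited count matrices. They were measured in mouse pancreatic islets by droplet single-cell RNA sequencing, in which each captured mRNA molecule is counted once at its 3′ end by a unique molecular identifier (UMI). One library is labelled BcBKO and comes from mice with a beta-cell-directed ablation and the Pdx1-cre transgene, and the other comes from flox/flox mice. Pdx1 is active in the embryonic pancreas as well as in adult beta cells, so a Cre under its promoter is not limited to beta cells. The series concerns BAF60C, the chromatin-remodelling subunit encoded by Smarcd3, and asks how its loss from beta cells affects islets; strain, sex and age of the mice are not given in the sources used here. Islets of at least 3 mice were pooled for each library, so there is 1 library per group, no test between the groups is possible, and the intervals below, all at 95%, express counting error alone.

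The upstream sequences of the genes are shown first because 7 of the 10 members have a window in RefSeq (GRCm38.p6) and because those of Hspa1a and Hspa1b are nearly the same in sequence. Each printed window holds the 250 bases before the annotated start site, read 5′ to 3′ on the gene's strand, and capitals mark matches to GAANNTTC or TTCNNGAA, the inverted pairs of the GAA units that heat-shock factor binds. Hspa1a (chr17:34972157-34972406, minus strand), Hspa1b (chr17:34959239-34959488, minus strand) and Hspb1 (chr5:135887669-135887918, plus strand) are given whole, and Hspe1 by 30 bases (chr1:55088053-55088082, plus strand) that lie in an annotated exon of a transcript of its head-to-head neighbour Hspd1.
Hspa1a: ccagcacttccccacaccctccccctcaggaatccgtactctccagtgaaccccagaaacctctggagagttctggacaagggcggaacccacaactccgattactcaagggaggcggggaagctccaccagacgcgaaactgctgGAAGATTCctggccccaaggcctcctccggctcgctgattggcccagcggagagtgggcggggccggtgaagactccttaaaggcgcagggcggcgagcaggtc
Hspa1b: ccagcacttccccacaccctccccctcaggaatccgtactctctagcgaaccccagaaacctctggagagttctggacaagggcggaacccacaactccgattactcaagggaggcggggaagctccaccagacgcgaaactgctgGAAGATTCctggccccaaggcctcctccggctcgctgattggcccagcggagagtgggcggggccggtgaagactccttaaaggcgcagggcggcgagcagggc
Hspb1: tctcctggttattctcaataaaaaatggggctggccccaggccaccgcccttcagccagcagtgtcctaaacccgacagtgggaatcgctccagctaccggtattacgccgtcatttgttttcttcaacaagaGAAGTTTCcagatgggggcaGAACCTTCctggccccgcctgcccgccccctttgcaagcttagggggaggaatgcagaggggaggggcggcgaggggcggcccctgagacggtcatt
Hspe1: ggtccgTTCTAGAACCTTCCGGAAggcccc

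The Hspa1a and Hspa1b windows were equal at 247 of 250 positions and differed by C44T, T47C and T249G, written as the Hspa1a base, the position counted from 1 at the 5′ end of the window, and the Hspa1b base. Each held 1 GAANNTTC, beginning 104 bases before the start site. Hspb1 held 2, beginning 117 and 97 bases before it. The 30 bases of Hspe1 join 4 alternating units into an 18-base run, and the same run lies in the window of the second annotated start of Hspd1. Hsph1 (both annotated starts) held 1 TTCNNGAA at chr5:149636362-149636369, while the windows of both Dnajb1 starts and of the first Hspd1 start held none of the motifs searched. Both short motifs read the same on either strand. Among all 32851 RefSeq windows of that length, 6.69% held GAANNTTC, 7.17% held TTCNNGAA, and 0.466% held a run of 3 alternating units, in which GAANNTTC and TTCNNGAA overlap by 3 bases. TATAAA was searched on both strands as well, and 12.4% of all windows and none of the members' windows held it. Hspa8, Hsp90aa1 and Hsp90ab1 had no entry.

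In GENCODE M21 (GRCm38), Hspa1b (chr17:34956436-34959238) and Hspa1a (chr17:34969190-34972156) lie 9951 bases apart on the minus strand, and Hspd1 (chr1:55077835-55088243, minus strand) overlaps Hspe1 (chr1:55088132-55091307, plus strand) by 112 bases at their 5′ ends. Because the assay counts 3′ ends, the last 500 bases of a transcript of each member were compared with all annotated transcripts in windows of 90 bases. Of 411 windows per gene, Hspa8 shared 79.8% with annotated copies of itself elsewhere, Hspe1 shared 36.0% and Hspb1 shared 7.06%, and the 7 other members, Hspa1a and Hspa1b among them, shared 0. Levels of Hspa8 and Hspe1 are therefore less certain, since they depend on how reads with several matches were counted, which was not tested.

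The library labelled BcBKO held 10775 barcodes and 178647270 UMIs, and the flox/flox library 9438 barcodes and 167670996 UMIs, of which 8504 and 7568 barcodes passed the filter on genes, UMIs and mitochondrial share. Cells were put into 6 classes by hormone share or marker UMIs. The libraries shared 23 barcode sequences. Beta cells numbered 3058 labelled BcBKO and 2750 flox/flox, with a median of 33171.5 and 38461.5 UMIs per cell. Alpha cells numbered 714 and 415, delta cells 371 and 281, endothelial cells 1516 and 1763, and macrophages 367 and 463, in the same order of libraries. The class defined by Rgs5 and Pdgfrb, genes of pericytes, held 665 and 794 barcodes, but 74.9% and 71.7% of them also met the endothelial rule, and over the class 7 endothelial markers summed to more CPM (13239 labelled BcBKO and 12785 flox/flox) than 7 mural markers (7163 and 8520). It is therefore called the Rgs5/Pdgfrb class here, and its results are also given for barcodes that met the rule of 1 class only, 163 and 223 in number. Endothelial cells had 16714 and 16722 CPM of endothelial markers against 3051 and 3584 CPM of mural markers, and macrophages had 12710 and 13394 CPM of macrophage markers against 560 and 1094 CPM of endothelial ones. Beta-cell markers, insulin included, were at 52064 and 42658 CPM in macrophages, and whether they came from free RNA or from shared droplets was not tested.

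Smarcd3 was not lower in the beta cells labelled BcBKO. It had 71 UMIs (0.610 CPM) there and 45 UMIs (0.374 CPM) in flox/flox beta cells, a ratio of 1.63 (1.11 to 2.42), so the label is used below as a label only. Which exons were flanked by lox sites is not given in the sources used here, so these 3′ UMIs may lie beyond the deleted stretch and then say nothing about it.

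All 10 chaperones were above the minimum level in every class, and their levels followed the class more than the library. Levels are CPM, the UMIs of a gene per 1000000 UMIs of a class, summed over its cells. In beta cells 70.9% of UMIs labelled BcBKO and 72.2% of flox/flox UMIs came from islet hormones and mitochondrial genes, against 8.74% and 6.98% in endothelial cells, so every level was also set over the remaining UMIs ("non-hormone CPM"). Both scales are shown in the plot of levels by class, and an order of classes is read only where both libraries gave it.

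**Figure D1:**
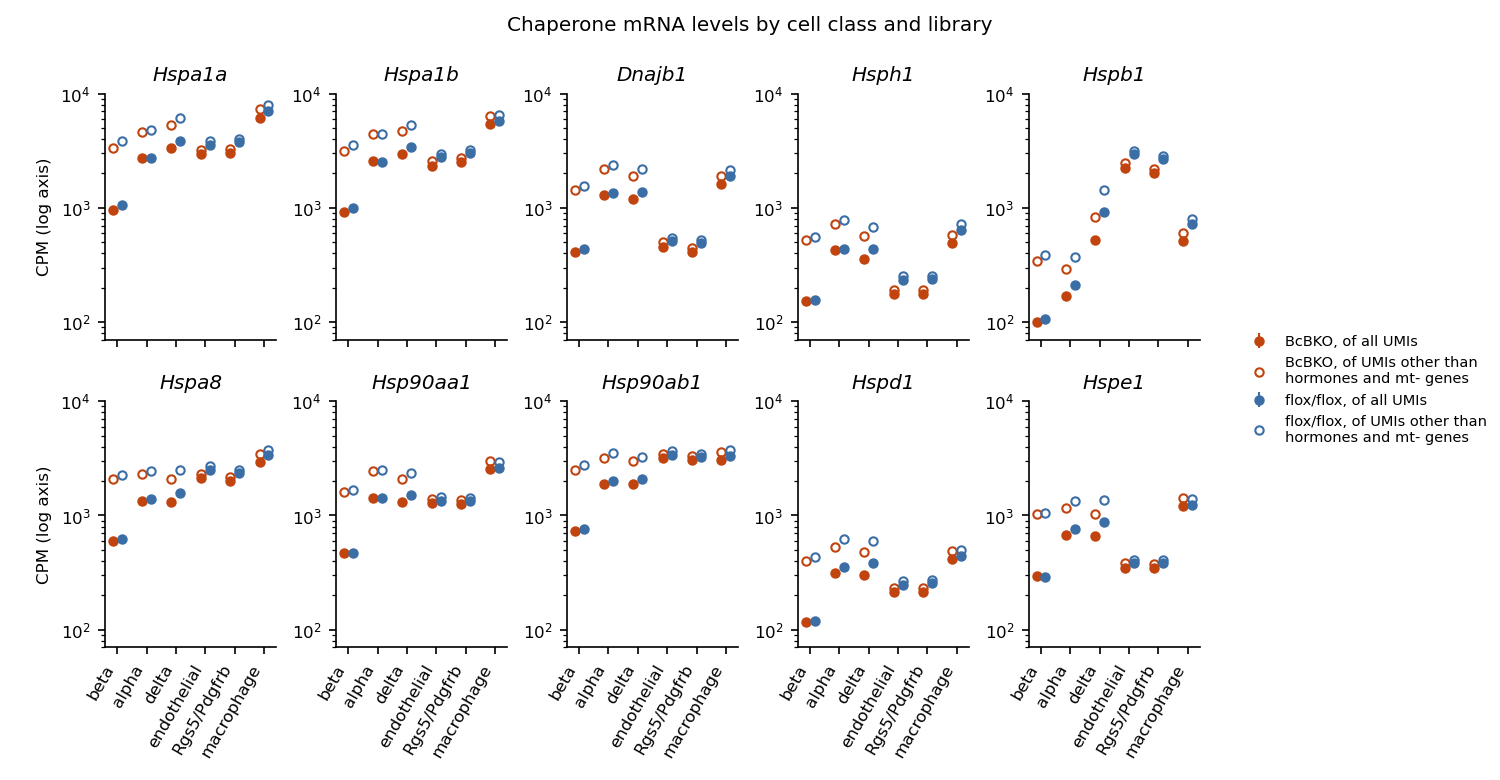
Level of each chaperone (CPM, log axis) in 6 cell classes, with cells labelled BcBKO in orange left of flox/flox cells in blue. Filled points are CPM of all UMIs with 95% counting intervals, mostly smaller than the points, and open points are CPM of UMIs other than hormones and mt- genes. Hspa1a and Hspa1b peak in macrophages, Hspb1 in endothelial cells and the Rgs5/Pdgfrb class, and the beta-cell values are the lowest filled points for 9 of 10 members in the library labelled BcBKO.

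Hspa1a and Hspa1b encode the stress-inducible HSP70 proteins, which are low in most unstressed tissues. Hspa1a had 6176 CPM in macrophages labelled BcBKO and 7068 CPM in flox/flox macrophages, 3346 and 3864 CPM in delta cells, 3048 and 3735 CPM in the Rgs5/Pdgfrb class, 2930 and 3554 CPM in endothelial cells, 2734 and 2712 CPM in alpha cells, and 966 and 1063 CPM in beta cells. Macrophages were highest and beta cells lowest in both libraries, the full order was the same in both, and no neighbours in it had overlapping intervals. Over non-hormone UMIs the beta-cell level was 3315 CPM labelled BcBKO and 3829 CPM in flox/flox cells, and macrophages stayed highest at 7262 and 7923 CPM. Endothelial cells had the lowest values, 3210 and 3820 CPM, in the flox/flox library hardly below beta cells. Intervals were not computed on this scale. The 6.40-fold and 6.65-fold range over classes thus became 2.26-fold and 2.07-fold. Hspa1b was likewise highest in macrophages and lowest in beta cells, with 5452 and 5759.6 CPM in macrophages and 915 and 991 CPM in beta cells.

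The partners of HSP70 were distributed otherwise. Dnajb1 encodes the J-domain protein that loads clients onto inducible HSP70, and Hsph1 encodes HSP110, its nucleotide exchange factor. Dnajb1 had 1610 CPM in macrophages labelled BcBKO and 1897 CPM in flox/flox macrophages, 1291 and 1354 CPM in alpha cells, 1198 and 1386 CPM in delta cells, 458 and 511 CPM in endothelial cells, 407 and 494 CPM in the Rgs5/Pdgfrb class, and 414 and 435 CPM in beta cells. Over non-hormone UMIs the order was the same in both libraries and ran from alpha cells (2185 CPM labelled BcBKO and 2395 CPM flox/flox) through delta cells, macrophages and beta cells to endothelial cells and the Rgs5/Pdgfrb class (440 and 527 CPM). In each library all 3 endocrine classes were thus above both vascular classes for Dnajb1. Hsph1 behaved alike, with alpha cells highest at 729 and 776 non-hormone CPM and endothelial cells at 191 and 251.

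Hspb1, which encodes the small heat-shock protein HSP27 (HSP25 in mice), was the most uneven member. It had 2253 CPM in endothelial cells labelled BcBKO and 2930 CPM in flox/flox endothelial cells, 2035 and 2687 CPM in the Rgs5/Pdgfrb class, 522 and 918 CPM in delta cells, 512 and 719 CPM in macrophages, 171 and 210 CPM in alpha cells, and 99.9 and 107 CPM in beta cells. The order was the same in both libraries, with overlapping intervals only between delta cells and macrophages labelled BcBKO. Over non-hormone UMIs it ranged 8.54-fold and 8.49-fold, and alpha cells took the lowest place in both libraries. In barcodes of the Rgs5/Pdgfrb class only, which had 657 and 609 CPM of endothelial markers, Hspb1 was still at 1490 and 1954 CPM.

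Hspa8 (the constitutive HSP70, HSC70), Hsp90aa1 (the inducible cytosolic HSP90) and Hsp90ab1 (the constitutive cytosolic HSP90) varied least over classes once hormones were set aside. Hsp90ab1 ranged from 2511 CPM in beta cells to 3573 CPM in macrophages labelled BcBKO, and from 2748 to 3739 CPM in the same classes of the flox/flox library, a 1.42-fold and 1.36-fold range in non-hormone CPM. Hspa8 ranged 1.67-fold and 1.69-fold, again lowest in beta cells and highest in macrophages. Hsp90aa1 ranged 2.18-fold and 2.05-fold, from the Rgs5/Pdgfrb class to macrophages, little less than the 2.26-fold and 2.07-fold of Hspa1a. On the scale of all UMIs beta cells were lowest for each of these 3 genes, at 602 and 622 CPM for Hspa8, 472 and 468 CPM for Hsp90aa1 and 731 and 763 CPM for Hsp90ab1.

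Hspd1 and Hspe1, the mitochondrial HSP60 and HSP10, had their lowest non-hormone levels in vascular cells. Hspd1 had 402 and 431 non-hormone CPM in beta cells, 533 and 623 in alpha cells and 233 and 266 in endothelial cells, with the library labelled BcBKO first in each pair. Hspe1 had 1023 and 1045 in beta cells and 381 and 409.5 in endothelial cells on that scale. In both libraries endocrine cells and macrophages were thus above endothelial cells for both genes.

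Between the libraries, 10 of 10 members were lower labelled BcBKO in delta cells, endothelial cells, the Rgs5/Pdgfrb class and macrophages, 8 of 10 in beta cells and 7 of 10 in alpha cells. Of all genes tested, 57.3%, 55.6%, 57.1%, 64.6%, 28.9% and 24.4% were lower in these classes, in that order. The 10 members share libraries and cells and are not independent. The median log2 ratio of the members (BcBKO over flox/flox, with a pseudocount of 1 CPM) was -0.24 in delta cells, -0.23 in endothelial cells, -0.27 in the Rgs5/Pdgfrb class, -0.16 in macrophages, -0.05 in beta cells and -0.06 in alpha cells. The median over all genes tested was -0.03, -0.02, -0.02, -0.08, 0.06 and 0.08 in the same classes. With barcodes of 1 class only, 6 of 10 members were below 0 in the Rgs5/Pdgfrb class (50.03% of all genes) with a median of -0.07, 8 of 10 in macrophages (57.2%) with a median of -0.10, and 6 of 10 in alpha cells (24.1%) with a median of -0.01. On that basis delta and endothelial cells still had 10 of 10 below 0, against 56.4% and 50.4% of all genes. The member medians there were -0.24 and -0.19. The plot of ratios by class sets each member beside the range of all genes.

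**Figure D2:**
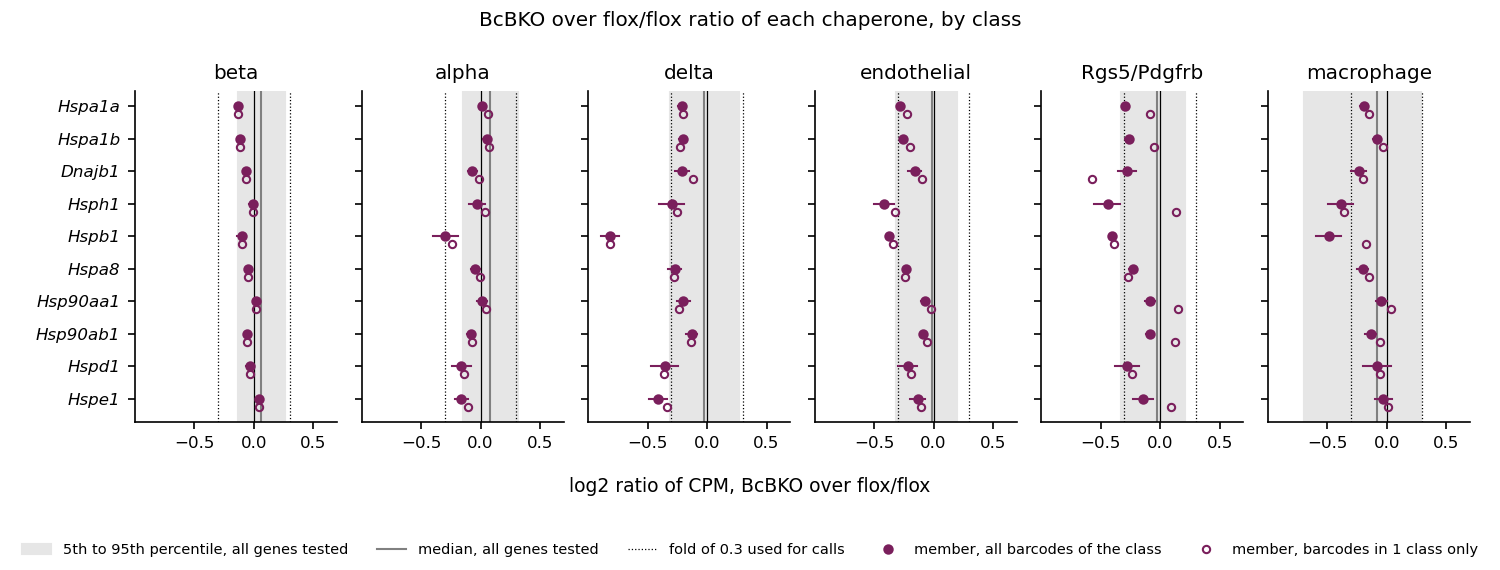
Log2 ratio of CPM, BcBKO over flox/flox, of each chaperone in 6 classes, with counting intervals as lines. The grey band holds the middle 90% of all genes tested, dotted lines mark 0.3 in either direction, and open points use barcodes in 1 class only. Hspb1 in delta cells (-0.81) lies farthest left, and most members of the Rgs5/Pdgfrb class move right when only barcodes of 1 class are used.

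A gene was counted as past the fold at a log2 ratio of 0.3 or more in either direction, among genes at 20 CPM or more in beta cells and 50 CPM or more elsewhere in either library. No member was past the fold upward in any class, where the shares of all genes were 3.68% in beta cells, 5.93% in alpha cells, 3.67% in delta cells, 1.65% in endothelial cells, 2.22% in the Rgs5/Pdgfrb class and 4.59% in macrophages. Downward, 0 members were past it in beta cells, against 1.26% of all genes, and 0 in alpha cells, against 1.07%. In delta cells 3 of 10 were past it, against 5.54% of all genes, in endothelial cells 2 of 10 against 5.71%, and in the Rgs5/Pdgfrb class 2 of 10 against 5.91%. In macrophages 2 of 10 were past it and so were 19.9% of all genes, so the members there were at the background. With barcodes in 1 class only, 2 of 10 were past it downward in endothelial cells (5.48% of all genes, and 3.32% upward with 0 members) and 2 of 10 in the Rgs5/Pdgfrb class (17.6%, and 16.3% upward with 0 members).

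Hspb1 in delta cells was the largest difference among members and classes. It had 522 CPM (2240 UMIs) in delta cells labelled BcBKO and 918 CPM (3188 UMIs) in flox/flox delta cells, a log2 ratio of -0.81 (-0.89 to -0.74). Of delta cells 65.8% labelled BcBKO and 79.4% of flox/flox held a UMI of it, at a median of 8842 and 10335 UMIs per cell, and with every cell thinned to 1000 UMIs the shares were 30.5% (25.8 to 35.4) and 43.1% (37.2 to 49.1). In barcodes with no UMI of the 7 endothelial markers it had 439 and 981 CPM (-1.16), and in barcodes of 1 class only 587 and 1033 CPM (-0.82). Acinar markers summed to 74.0 CPM in delta cells labelled BcBKO and 472 CPM in flox/flox delta cells, and B-cell markers to 3222 and 35.7 CPM. Their part in the difference was not tested. Hspb1 was also lower in endothelial cells (-0.38, -0.40 to -0.36) and in the Rgs5/Pdgfrb class (-0.40, -0.43 to -0.37).

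Mitochondrial chaperonins in delta cells were the other members past the fold there. Hspe1 had 655 CPM labelled BcBKO and 870.5 CPM in flox/flox delta cells (-0.41, -0.48 to -0.33), and Hspd1 had 300 and 383 CPM (-0.35, -0.47 to -0.24). Hsph1, the HSP110 gene, lay just under the fold at -0.30 in delta cells, and was past it in endothelial cells with 174 and 233 CPM (-0.42, -0.50 to -0.33), in the Rgs5/Pdgfrb class with 176 and 239 CPM (-0.44, -0.55 to -0.33) and in macrophages with 488 and 639 CPM (-0.39, -0.50 to -0.28). In Rgs5/Pdgfrb barcodes of 1 class only, however, Hsph1 had 142 and 129 CPM (0.14, -0.25 to 0.52), and Dnajb1 was past the fold instead, at 253 and 377 CPM (-0.57, -0.84 to -0.32). Hspb1 in macrophages had 512 and 719 CPM (-0.49, -0.59 to -0.39) and 508 and 574 CPM (-0.17) in barcodes of 1 class only.

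In beta cells, the targeted cells by the label, the largest difference was that of Hspa1a, 966 CPM labelled BcBKO and 1063 CPM flox/flox (-0.14, -0.15 to -0.13). Hspa1b was at -0.12 and Hspb1 at -0.10, Hsph1 at -0.01 and Hspd1 at -0.03. Hsp90aa1 (0.01) and Hspe1 (0.04) had the only positive values. Over non-hormone UMIs all 10 members were below 0, Hspa1a at -0.21, and TMM scaling put all 10 below 0 as well, so the sign of Hsp90aa1 and Hspe1 turned with the scaling. The median of all genes in beta cells moved as well, from 0.06 to -0.01 over non-hormone UMIs and -0.02 with TMM scaling. In alpha cells Hspa1a (0.01), Hspa1b (0.05) and Hsp90aa1 (0.01) were positive and turned negative under both scalings, while TMM scaling moved the median of all genes there from 0.08 to -0.03. In macrophages the count of members below 0 was 10 with all UMIs, 8 over non-hormone UMIs and 6 with TMM scaling. The median of all genes in macrophages was -0.08, -0.02 and 0.01 in that order.

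The balance within the inducible HSP70 pair depended on the cell class. Hspa1a made up 51.4% (51.2 to 51.6) of the UMIs of Hspa1a and Hspa1b together in beta cells labelled BcBKO and 51.8% (51.6 to 52.0) in flox/flox beta cells. The share was 55.7% (55.3 to 56.2) and 56.2% (55.8 to 56.5) in endothelial cells, and 57.1% (56.5 to 57.7) and 57.6% (57.1 to 58.1) in endothelial barcodes of 1 class only. Delta cells (53.1% and 53.2%) lay between. Endothelial cells were above beta cells, alpha cells, delta cells and macrophages in both libraries, with intervals that did not overlap. Macrophages were the class with the widest gap between libraries, at 53.1% (52.5 to 53.7) labelled BcBKO and 55.1% (54.6 to 55.6) flox/flox. The windows upstream of the start sites of these genes, printed above, differ at 3 bases.

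**Figure D3:**
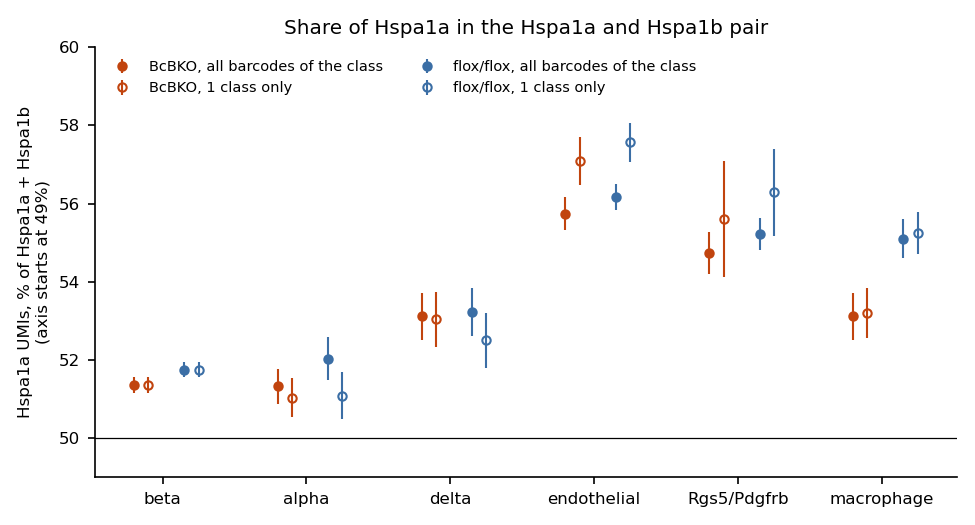
Hspa1a UMIs as a percentage of Hspa1a plus Hspa1b UMIs by cell class, with 95% binomial intervals, cells labelled BcBKO in orange left of flox/flox cells in blue, and barcodes in 1 class only as open points. The axis starts at 49%. Beta and alpha cells sit near 51% to 52% and endothelial cells near 56% to 58%.

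Single beta cells differed widely in the inducible members. Beta cells thinned to 10000 UMIs held a median of 9 Hspa1a UMIs (10th to 90th percentile 1 to 21) labelled BcBKO and 10 (1 to 22) flox/flox, and 92.8% and 92.9% of them held at least 1. The variance of Hspa1a UMIs per cell was 6.52 and 6.76 times the mean, that of Hspa1b 6.31 and 6.36 times, while Hsp90ab1 had 2.55 and 2.59 and Hspd1 1.43 and 1.42. This ratio rises with the mean, which was 10.1 and 11.1 UMIs per cell for Hspa1a, 7.54 and 7.90 for Hsp90ab1 and 1.22 and 1.24 for Hspd1, so it does not rank Hspd1 as the evenest. Of Hspa1a UMIs 26.6% and 26.1% lay in the top 10% of cells for that gene, and of Hspd1 UMIs 33.2% and 32.7% did. Hspb1 was concentrated in few cells. The 10% of beta cells with the most Hspb1 held 67.3% of its UMIs labelled BcBKO and 69.5% flox/flox, against 22.3% and 21.8% for Hsp90ab1, and 32.3% and 32.7% of cells held any. No islet class is known to lack these genes, so no class gives a background for these shares. Barcodes under 1000 UMIs had 156 and 218 CPM of Hspb1, above the 99.9 and 107 CPM of beta cells over all UMIs. Over non-hormone UMIs beta cells had 343 and 387 CPM, and these barcodes were not put on that scale. The part of free RNA in the beta-cell UMIs was not tested.

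**Figure D4:**
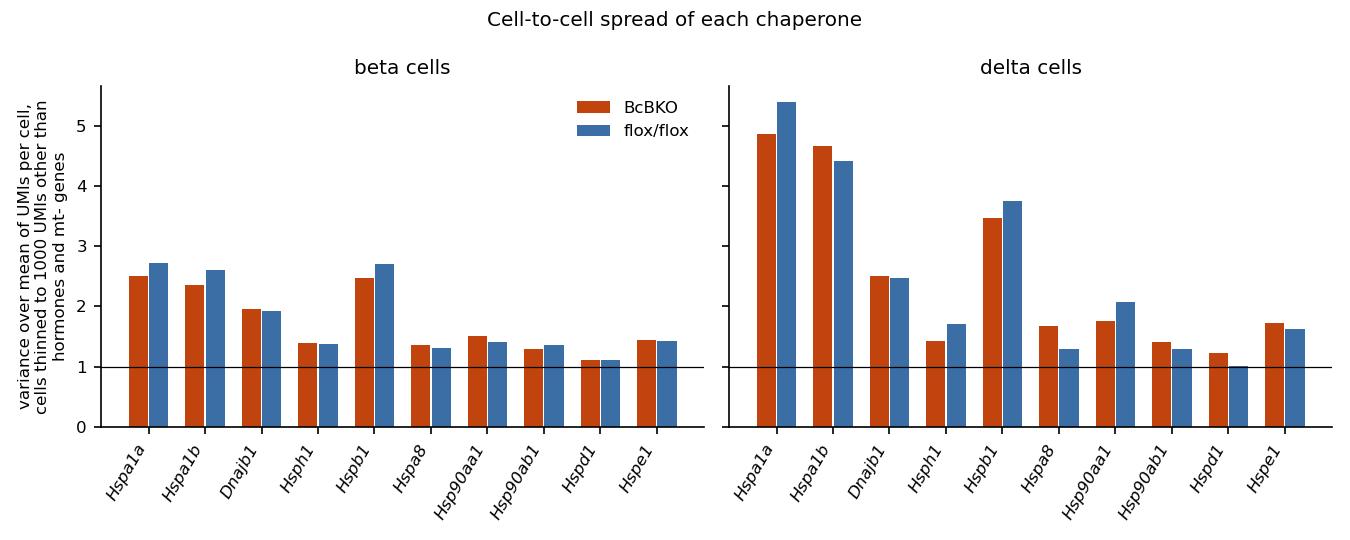
Variance over mean of UMIs per cell for each chaperone in beta cells (left) and delta cells (right), each cell thinned to 1000 UMIs other than hormones and mt- genes, with cells labelled BcBKO in orange left of flox/flox in blue. The line at 1 is counting noise alone. Hspa1a, Hspa1b and Hspb1 have the highest bars in both classes, and Hspd1 lies near 1.

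Within beta cells Hspa1a varied with both inducible and constitutive chaperones, and most with Hspa1b and Dnajb1. Over 3058 cells labelled BcBKO and 2750 flox/flox cells, each thinned to 10000 UMIs, Hspa1a correlated with Hspa1b at r = 0.58 and 0.53, with Dnajb1 at 0.42 and 0.35, with Hsp90aa1 at 0.35 and 0.24 and with Hspd1 at 0.19 and 0.12. The constitutive members Hsp90ab1 (0.31 and 0.30) and Hspa8 (0.32 and 0.29) were above Hsph1 (0.29 and 0.27). Cells of 1 library share its handling and sequencing, and a cell with a smaller hormone share has more UMIs left for every other gene. With cells thinned to 1000 UMIs other than hormones and mt- genes, a basis chosen after seeing the data, only Hspa1b (0.43 and 0.39) and Dnajb1 (0.28 and 0.22) were above 0.2 in both libraries. That basis also leaves fewer UMIs per cell, which alone lowers r, and the parts of depth and hormone share in the lower values were not told apart. On the basis of all UMIs, with classes other than beta thinned to 1000 UMIs, macrophages had the strongest pairing of Hspa1a with Hspa1b, at 0.70 and 0.73. Among classes thinned to that depth they also had the highest mean of Hspa1a, at 7.02 and 7.89 UMIs per cell. The part of this mean in r was not tested.

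The 25% of beta cells with the most Hspa1a UMIs (764 cells labelled BcBKO and 687 flox/flox) were set against the 25% with the fewest, as a description. Mean UMIs per cell were 3.62-fold and 3.06-fold higher for Hspa1b, 2.92-fold and 2.31-fold higher for Dnajb1, and 3.95-fold and 2.62-fold higher for Hspb1, with the library labelled BcBKO first. The constitutive members differed less, with 1.78-fold and 1.58-fold for Hspa8 and 1.65-fold and 1.63-fold for Hsp90ab1. So did the inducible Hsp90aa1, with 2.08-fold and 1.58-fold. On the non-hormone basis the same ratios were 2.64-fold and 2.40-fold for Hspa1b and 1.47-fold and 1.36-fold for Hsp90ab1. Hsp90aa1 had 1.66-fold and 1.31-fold on that basis.

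**Figure D5:**
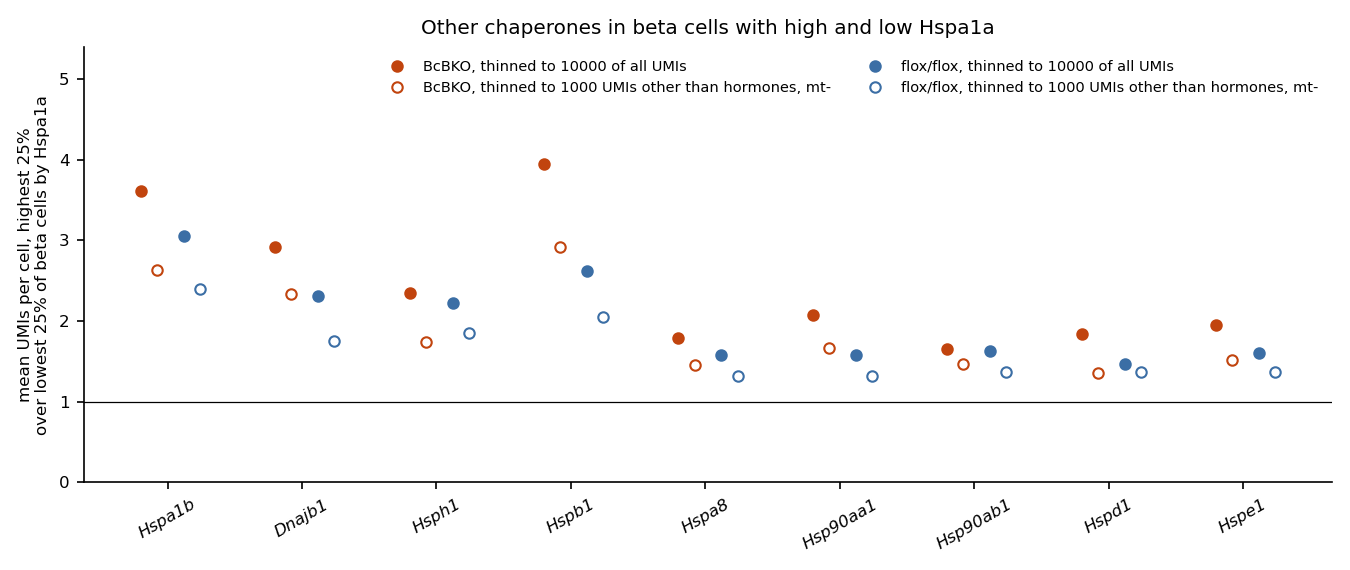
Ratio of mean UMIs per cell between the 25% of beta cells with the most and the 25% with the fewest Hspa1a UMIs, for the 9 other chaperones, labelled BcBKO in orange left of flox/flox in blue. Filled points use cells thinned to 10000 of all UMIs, open points cells thinned to 1000 UMIs other than hormones and mt- genes. All points lie above 1. Hspa1b, Dnajb1 and Hspb1 have the highest filled points in both libraries, while among the open flox/flox points Hsph1 (1.86) lies above Dnajb1 (1.75).

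Beta cells with a larger insulin share had lower chaperone levels even over non-hormone UMIs. In the 1019 beta cells labelled BcBKO and 916 flox/flox beta cells with the largest insulin share (median 66.6% and 68.3% of UMIs), Hspa1a had 3079 and 3508 non-hormone CPM. In the 1020 and 917 cells with the smallest share (56.5% and 59.7%) it had 3431 and 4169. Hspb1 had 294 and 307 in the insulin-rich cells and 402 and 469 in the insulin-poor cells, and Dnajb1 1227 and 1368 against 1508 and 1740. All 10 members were lower in the insulin-rich cells in both libraries. The share of all genes that were lower there was not counted, so whether this is particular to the chaperones is not known. When the same numbers of cells were sorted by UMIs per cell, Hspa1a had 3170 and 3660 in the deepest cells and 3565 and 4169 in the shallowest. Depth thus moved with Hspa1a too, but not alike with every member. Hspe1 had 1026 and 1062 in the deepest cells and 1014 and 1018 in the shallowest. The part of depth was not tested.

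Other genes of the chaperone system were read from lists of known partners, named by the highest and lowest ratio in beta cells. Of the 17 HSP70 and J-domain partners, 14 reached the minimum in beta cells and 0 were past the fold, with a median log2 ratio of 0.04 and values from -0.08 for Stip1, the adaptor between HSP70 and HSP90, to 0.15 for Hspa4, an HSP110 relative. Of 8 genes of the CCT chaperonin, which folds actin and tubulin, 7 were tested and 0 were past it (Cct4 -0.09 to Tcp1 0.11). Of 9 HSP90 partners, 6 were tested and 0 were past it, from -0.13 for Cacybp, a ubiquitin-ligase adaptor, to 0.06 for Cdc37, the kinase cochaperone. Among mitochondrial partners Grpel1, the exchange factor of mitochondrial HSP70, had -0.05 and the protease gene Clpp 0.03, and Hsbp1, an inhibitor of heat-shock factor 1, had 0.16. The percentages of all genes past the fold are those given above.

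Fkbp5, which encodes an immunophilin that binds HSP90 in glucocorticoid receptor complexes and is itself induced by glucocorticoids, was the HSP90 partner past the fold in each of the 5 classes other than beta. It had 36.1 CPM labelled BcBKO and 56.7 CPM flox/flox in alpha cells (-0.64), 27.2 and 52.7 in delta cells (-0.93), 46.8 and 135 in endothelial cells (-1.50), 37.6 and 118 in the Rgs5/Pdgfrb class (-1.63) and 21.2 and 80.0 in macrophages (-1.87). In each of these 5 classes only its flox/flox level reached the minimum of 50 CPM. A gene that enters through 1 library in this way can more readily be past the fold downward. In beta cells Fkbp5 had 11.4 and 18.1 CPM (-0.62), under the minimum level. Its ratio was lower than that of every chaperone of the 10 in each of the 6 classes.

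Of 6 other known targets of heat-shock factor, 4 were tested in beta cells and 1 was past the fold. Gadd45b, a stress-induced growth-arrest gene, had 27.1 CPM labelled BcBKO and 52.2 CPM flox/flox (-0.92), and Mafg had 22.7 and 22.1 CPM. The ubiquitin gene Ubb was at -0.19 in beta cells and past the fold in delta cells with 2313 and 2904 CPM (-0.33). Of 12 immediate-early genes known from tissue dissociation, 10 were tested in beta cells and 0 were past the fold, from -0.19 for Atf3 to 0.14 for Egr1. In endothelial cells all 12 were below 0 and 2 were past it, Atf3 (464 and 679 CPM, -0.55) and Zfp36 (558 and 732 CPM, -0.39). The summed level of the 12 was 18034 and 20685 CPM in endothelial cells, 15570 and 17039 CPM in macrophages and 2460 and 2562 CPM in beta cells, each lower labelled BcBKO, while in alpha cells it was 7339 and 7318 CPM. The summed level of the 10 chaperones was 15282.5 and 17864.5 CPM in endothelial cells, 24384.5 and 27097 CPM in macrophages and 4769 and 5013 CPM in beta cells. The part of the dissociation response in the chaperone differences was not tested.

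Over the 12 sums of 6 classes in 2 libraries, which share libraries and depth and are given as a description, the pattern most like Hspa1a was that of Hspa1b (r = 0.99), followed by Rfc2 (0.99), Nsa2 (0.99), Ucp2 (0.98), Usp8 (0.98) and Abr (0.98) among 4772 genes. Of the other members Hsp90aa1 was at 0.98 and Hspb1 at 0.59. Over non-hormone UMIs the 5 most like genes outside the members were Nsa2 (0.95), Cd83 (0.94), Tep1 (0.94), Ctsh (0.94) and Hpgd (0.92), so 1 of 5 was the same, and Hspb1 was at -0.25. Across beta cells the genes outside the members that varied most with Hspa1a in both libraries included the immediate-early genes Jun (0.42 and 0.35) and Fos (0.41 and 0.31). With cells thinned to 1000 UMIs other than hormones and mt- genes these were 0.25 and 0.20 for Jun and 0.28 and 0.19 for Fos.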

How the data were processed

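Whole-number UMI counts per gene and barcode were deposited for each library by the authors, as filtered matrices with nothing normalized. Per the submitters' processing notes Cell Ranger 3.1.0 and Seurat 4.0.0 were used with mm10, while the file headers name cellranger 6.1.2; which of them made the matrices was not tested. Barcodes with at least 500 genes, at least 1000 UMIs and at most 20% mitochondrial UMIs were kept. Beta cells had at least 25% of UMIs from Ins1 and Ins2, at least 10000 UMIs and under 1% each of Gcg, Sst and Ppy. The other classes had under 15% insulin UMIs and at least 10% Gcg (alpha), 5% Sst (delta), 3 UMIs of Plvap and Cdh5 (endothelial), 5 of Rgs5 and Pdgfrb, or 5 of C1qa and C1qb (macrophage). Barcodes that met several rules were counted in each, and doublets were kept.

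Counts were summed per class and library, divided by the UMIs of the class, and compared as log2((CPM + 1) ratios). Intervals are exact: Poisson for levels, conditional binomial for ratios and Clopper-Pearson for shares, all at 95%. Cells were thinned to 10000 UMIs (beta) or 1000 UMIs (other classes). All 10 members are named, and from each partner list the highest and lowest ratio in beta cells and genes whose role is described. Members and lists were chosen with earlier results of these data known. A gene of the partner lists is not reported here. TMM factors came from edgeR 4.0.16 (R 4.3.3) and doublet calls from Scrublet in scanpy 1.11.5; the rest used pandas 2.3.3, scipy 1.17.1, matplotlib 3.10.9 and numpy 2.4.6 under Python 3.11.15. The scripts were tested on simulated data.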

Additional observations from a re-analysis of the deposited data

Results flagged for a closer look

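Hspa1a was also counted in barcodes that none of the comparisons use. Kept barcodes in no class had 1688 CPM of it in the library labelled BcBKO (2419 barcodes, median 2713 UMIs) and 2230.3 CPM in the flox/flox library (1747 barcodes, median 1867 UMIs). Barcodes removed by the filter had 1171 CPM labelled BcBKO (2271 barcodes, median 899 UMIs) and 1223 CPM flox/flox (1870 barcodes, median 891.5 UMIs). Each value is above the level that 3 counts allow in its set, at most 1.28 CPM. Each is also above the Hspa1a level of beta cells over all UMIs. Over non-hormone UMIs beta cells had 3315 CPM labelled BcBKO and 3829 CPM flox/flox, and these barcodes were not put on that scale.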

How the results depend on the processing

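With 1 library per group no value here has an error between mice, and the intervals express counting error alone. No paired analysis was possible because each group has 1 library. In delta and endothelial cells 10 of 10 members had the same sign under every alternative, against 7 in beta cells, 4 in alpha cells, 6 in the Rgs5/Pdgfrb class and 6 in macrophages. The share of all genes that kept their sign was not counted, so these counts have no background. No alternative put a member past the fold upward. Members past the fold downward in alpha cells numbered 1 in place of 0 with totals without hormones and mt- genes, with TMM factors, with Scrublet doublets left out and with the mean CPM over cells. The shares of all genes past it downward were 2.18%, 3.17%, 1.14% and 1.36% in that order, in place of 1.07%. In delta cells 5 members were past the fold downward with stricter class thresholds, in place of 3 (7.77% of all genes in place of 5.54%). In delta barcodes without endothelial marker UMIs, an alternative chosen after seeing the data, 6 members were past it (8.46% of all genes). In macrophages the members past it downward numbered 1 with barcodes of several classes left out and 1 in thinned cells, in place of 2. The shares of all genes there were 14.5% and 25.5%, in place of 19.9%. In the Rgs5/Pdgfrb class the members past it downward numbered 4 with the mean CPM over cells and 4 in thinned cells, in place of 2. The shares of all genes there were 6.58% and 17.3%, in place of 5.91%. Hsph1 in that class turned to 0.14 with barcodes of several classes left out. Of the 5 genes most like Hspa1a, 1 was kept with totals without hormones and mt- genes. The cause was not tested in any of these. Delta barcodes without acinar marker UMIs, also chosen after seeing the data, gave no value, because 175 labelled BcBKO and 1 flox/flox were left. Scrublet called 2.09% and 2.25% of kept barcodes, with the expected rate set to 8%. Of barcodes that met both the Rgs5/Pdgfrb and the endothelial rule it called 9 of 498 labelled BcBKO and 9 of 569 flox/flox. Leaving out its calls therefore kept most of these barcodes.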

Other observations

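At 1000 UMIs per cell, delta cells and macrophages had the highest variance over mean of Hspa1a UMIs, in an order that depended on the basis. With cells thinned to 1000 UMIs other than hormones and mt- genes, the variance of Hspa1a UMIs was 4.85 times the mean in delta cells labelled BcBKO and 5.39 times in flox/flox delta cells, against 2.51 and 2.71 times in beta cells. Macrophages, where the mean per cell was higher (7.68 and 8.77 UMIs against 5.25 and 6.40 in delta cells), had 3.87 and 4.44 times. This ratio rises with the mean, which was 3.41 and 3.87 UMIs in beta cells. On the same basis the top 10% of cells held 23.8% and 24.7% of Hspa1a UMIs in macrophages. They held 31.1% and 29.7% in delta cells and 27.8% and 27.3% in beta cells, so by that measure macrophages were more even than both. With cells thinned to 1000 of all UMIs, the variance over mean was 3.77 and 4.35 in delta cells and 3.93 and 4.17 in macrophages. Barcodes under 1000 UMIs had 1169 CPM of Hspa1a labelled BcBKO (1339 barcodes) and 1335 CPM flox/flox (1116 barcodes).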
